A study of Mus musculus with 7 samples.

Results

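The effect of a high fat diet was examined in the cells of the mouse seminal vesicle that do not fill themselves with secretory Svs RNA. The Svs genes encode the major proteins of seminal vesicle fluid, and a cell was taken as outside the secretory compartment when Svs2, Svs4, Svs5 and Svs6 made up under 30% of its UMIs (unique molecular identifiers, the barcodes by which each captured RNA molecule is counted once). Cells also needed at least 500 detected genes and at most 10% of UMIs from mitochondrial genes. UMIs of these cells were summed per mouse, and the genes named Svs plus a digit were left out of the sums. The comparison held 6 of the 23 mice and 3 of the 7 libraries of the series, with 4811 cells (2504 from control and 2307 from high fat mice) of 30609 cells below the Svs limit in the whole series.

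All 6 mice were wild type FVB/NJ males of about 12 weeks that had received a diet based on AIN-93G for 9 weeks after weaning. The control group was fed the control version of that diet (Ctrl) and the other group its high fat version (HFD). Each group held 3 mice. In each group, 2 mice were tagged and run in 1 shared pool (control 1, control 2, high fat 1, high fat 2), and 1 mouse was run as a library of its own (control single, high fat single). The tissue was whole seminal vesicle, dissociated and captured without a sort. The 4 pool mice share 1 capture. The single libraries were separate captures, 1 per diet, so diet and capture cannot be told apart between them. P-values come from the pool mice and that pair together, and do not measure the spread between captures apart from that between mice. Mice on the low protein version of the diet, 2 from the same pool and 1 single library, were used only to show where high fat differed from another diet.

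The seminal vesicle is an androgen-dependent gland in which a folded secretory epithelium rests on basal cells, a fibroblast stroma and a coat of smooth muscle, with blood vessels, nerves and immune cells between them. In other tissues a fatty diet is known to raise circulating fatty acids, which act on PPAR nuclear receptors to induce genes of fatty acid oxidation and lipid storage, and to lower the sterol-responsive genes that make cholesterol. It is also known for inflammatory changes in the macrophages of adipose tissue. The gene lists used here cover these programs, and the markers of the cell types that the tissue could hold.

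Depth differed more between the kinds of library than between diets. The control mice contributed 934, 158 and 1412 cells (pool mice 1 and 2, then the single library) with 4596814, 530317 and 1731874 UMIs outside the Svs genes. The high fat mice contributed 721, 405 and 1181 cells with 2770318, 1633391 and 1347101 UMIs. In the pool mice the median cell held between 2642 and 3266.5 UMIs and 88.4% to 90.8% of the passing cells lay below the Svs limit, whereas in the single libraries the median cell held 1130.5 (control) and 1031 (high fat) UMIs and only 33.5% and 30.7% lay below it. The library type was therefore kept as a block in every fit between diets. Control 2 stood apart as the shallowest mouse, with the highest share of macrophage-like cells of the 6 mice (12.7%). The pool mice shared no cell barcode with each other (0 of 2218 cells), and 1 of the 1412 cells of the control single library carried a barcode also present in the pool.

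No gene differed between the diets at an adjusted p of 0.05 over the summed cells. The edgeR quasi-likelihood test called 0 of 10382 genes (0%), with a smallest adjusted p of 0.999901. At an unadjusted p under 0.05 there were 236 genes (2.27% of those tested), of which 156 had the higher fitted level on high fat. With library sizes used without scaling factors the same count was 237 genes, of which 183 were higher. DESeq2 called 0 of 18396 genes and gave 75 an unadjusted p under 0.05. The median log2 fold change of high fat over control was 0.0039 over all genes, with a median standard error of 0.23.

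The size of change that these mice allow is set by the intervals. The 95% interval of the fold change lay within 2-fold in either direction for 8029 genes (77.3%). Among the 1513 genes of at least 100 CPM (the count of a gene scaled to a fixed total of UMIs per mouse) it did so for 96.8%, with a median half-width of 0.306 on the log2 scale. Among the 7019 genes between 10 and 100 CPM the share was 87.3%, and among the 1850 genes below 10 CPM it was 23.7%.

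**Figure D1:**
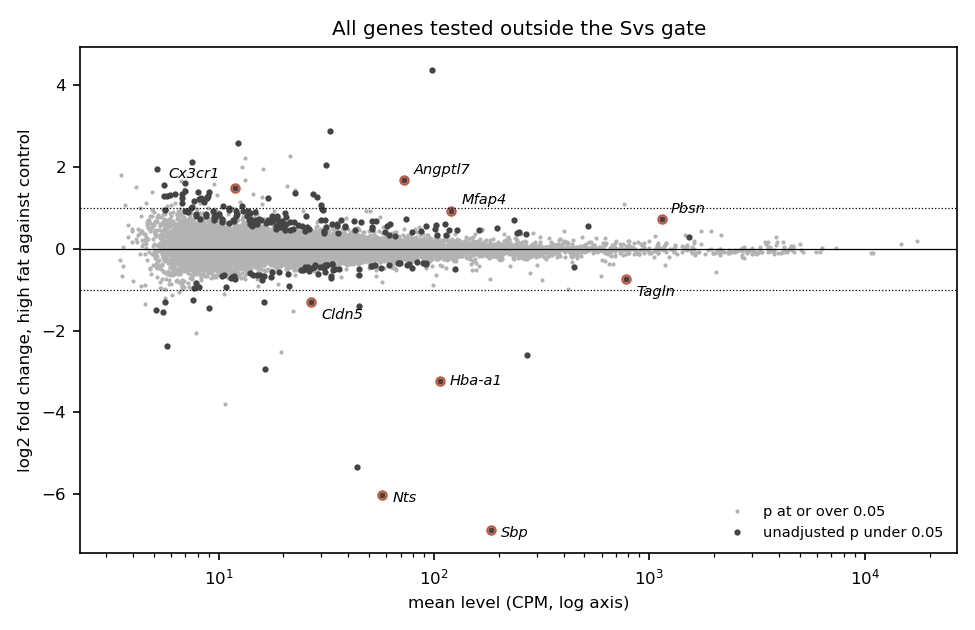
Fitted log2 fold change of high fat over control (vertical axis) against mean level in CPM (horizontal log axis) for each of the 10382 genes tested, with dotted lines at 2-fold and dark points for the 236 genes with an unadjusted p under 0.05. Most points lie near 0 and spread more widely at low levels, and none passed the adjusted threshold, the ringed genes included.

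The genes with the smallest unadjusted p among those higher on high fat included fibroblast and extracellular matrix genes. Levels are given as CPM after scaling by TMM (the trimmed mean of M-values), in the order pool mouse 1, pool mouse 2, single library. Angptl7, a secreted angiopoietin-like protein (chr4:148495183-148500460, minus strand), had 4.90, 0 and 81.1 CPM in control and 9.90, 5.73 and 328 CPM in high fat mice. The high fat mice were above the controls of their own library type, while the groups overlapped as a whole because the single libraries lay far above the pool. The log2 fold change was 1.67 ± 0.33 (SE, adjusted p = 0.999901). On leaving out 1 mouse it lay between 0.96 (without the control single library) and 2.07 (without control 1, where edgeR called it at an adjusted p of 0.0155). The difference of log2(CPM + 1) was 1.82 within the pool and 2.00 between the single libraries.

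Mfap4, a microfibril-associated matrix protein (chr11:61485431-61488900, plus strand), had 42.2, 25.6 and 183 CPM in control and 92.4, 69.4 and 289 CPM in high fat mice, with a log2 fold change of 0.93 ± 0.19. Its difference was 1.26 within the pool and 0.66 between the single libraries. Clec3b, which encodes the secreted plasminogen-binding protein tetranectin, had 15.9, 21.7 and 25.4 CPM against 26.8, 33.1 and 57.6 CPM. It was the 1 of these 3 genes in which the lowest high fat mouse was above the highest control mouse. Dse, an epimerase that makes dermatan sulfate, had a log2 fold change of 0.81 ± 0.20. Angptl7 and Mfap4 were among the leading genes of 1 fibroblast-like cluster, and in summed cells a difference in the number of cells of a type and one in RNA per cell cannot be told apart.

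Other genes of this group belong to epithelium, phagocytes and dividing cells. Myo5c, a class V myosin that moves secretory granules in epithelia, had 18.9, 15.8 and 0 CPM in control and 39.2, 47.1 and 3.55 CPM in high fat mice. Cx3cr1, the fractalkine receptor of mononuclear phagocytes, had 7.70, 7.89 and 1.08 CPM against 24.9, 14.7 and 4.98 CPM, a log2 fold change of 1.48 ± 0.36. Both genes were higher on high fat within the pool and between the single libraries. Top2a, the topoisomerase of dividing cells, had 7.70, 5.92 and 8.65 CPM against 12.1, 15.3 and 22.0 CPM (log2 fold change 1.04 ± 0.27). The summed level of the 6 proliferation markers overlapped, at 171, 190 and 319 CPM before TMM scaling in control and 229, 202 and 355 CPM in high fat mice. Bglap3, a gene of the osteocalcin family, Tcaf3, a relative of the factors that associate with the TRPM8 channel, and 4930412O13Rik completed the 10, with log2 fold changes of 0.68 ± 0.17, 1.06 ± 0.25 and 1.24 ± 0.28. Bglap3 was among the leading genes of an unnamed cluster that Lars2 and Gm42418 also led. Tcaf3 and 4930412O13Rik were among those of such a cluster in a finer clustering (Leiden resolution 2). Tcaf3 had 4 UMIs in each of the single libraries. The part of cell numbers in these 3 genes was not tested.

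The genes with the smallest unadjusted p among those lower on high fat were led by hemoglobin. Hba-a1, an alpha-globin gene (chr11:32283511-32284465, plus strand), had 403, 140 and 6.49 CPM in control and 47.3, 11.5 and 0 CPM in high fat mice. The log2 fold change was -3.22 ± 0.57, and its unadjusted p of 0.000337 was the smallest of all genes. The value was -2.25 without control 1, -4.66 without high fat 1 and -3.66 without control 2, where it was called (adjusted p = 0.00694). Hbb-bs, a beta-globin gene, had 1027, 314 and 15.7 CPM against 214, 11.5 and 1.42 CPM, a log2 fold change of -2.60 that was -1.53 without control 1 and -5.64 without high fat 1. Both mouse alpha-globin genes are near-identical copies, so the division of reads between Hba-a1 and Hba-a2 is uncertain. The summed level of the 4 red cell markers before TMM scaling ran from 23.7 to 1416 CPM in control, 1.48 to 262 CPM in high fat and 0 to 7811 CPM in low protein mice. Each pool high fat mouse was thus below both pool control mice, and the mice of every diet spanned a wide range. The part of residual blood in the hemoglobin values was not tested.

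Cldn5, the tight junction claudin of blood vessel walls (chr16:18776847-18778262, plus strand), had 32.0, 63.1 and 31.9 CPM in control and 15.4, 13.4 and 17.1 CPM in high fat mice. All high fat mice were below all control mice, with a log2 fold change of -1.31 ± 0.29. The difference of log2(CPM + 1) was -1.58 within the pool and -0.87 between the single libraries. Aqp1, a water channel of capillary endothelium and other cells, had 114, 140 and 186 CPM against 88.3, 78.4 and 142 CPM. The 6 endothelial markers had a median log2 fold change of -0.02, between -0.31 and 0.02. The summed lymphatic endothelial markers before TMM scaling were 111, 17.0 and 137 CPM in control and 146, 32.4 and 77.9 CPM in high fat mice. The part of cell numbers in the Cldn5 values was not tested.

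Nts, the neuropeptide neurotensin, had 27.5 and 442 CPM in the pool control mice and 0 and 5.10 CPM in the pool high fat mice, and 37 UMIs in the control single against 4 UMIs in the high fat single library. Each control mouse was above each high fat mouse in CPM, but control 2 stood far above the other 2 controls. The log2 fold change of -6.03 ± 1.87 was -3.50 without control 2, and Nts was called without control 1 (-7.13, adjusted p = 0.00612). Sbp, the spermine-binding protein of prostate secretion, had 999 CPM in control 1 and 0 in the other 2 controls, against 1.10, 9.56 and 0 CPM. Its log2 fold change of -6.88 ± 2.07 therefore rested on 1 mouse, and it was called without control 2 (-7.83, adjusted p = 6.10e-05). The summed Schwann cell markers also peaked in control 2, at 255 CPM before TMM scaling, against 90.5 CPM in control 1 and 98.9 and 76.5 CPM in the pool high fat mice. Nts itself was among the leading genes of an endothelial-like and of the lymphatic endothelial-like cluster, and not of the Schwann-like one. The cell source of the Nts values was not tested.

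The rest of this group were genes of transcription, vesicle transport and zinc uptake. Trp63, the transcription factor that maintains basal epithelium, had 22.2, 17.8 and 60.5 CPM in control and 15.4, 10.8 and 39.8 CPM in high fat mice, while the 7 basal markers together had a median log2 fold change of -0.0024. Lmo1, a LIM-domain transcription cofactor, had 50.6, 43.4 and 64.9 CPM against 31.9, 29.9 and 41.9 CPM. The lowest control mouse was above the highest high fat mouse for Lmo1 but not for Trp63. Hip1r, which links endocytic vesicles to actin, and Slc39a8, a zinc importer, had log2 fold changes of -0.92 ± 0.21 and -1.31 ± 0.32.

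**Figure D2:**
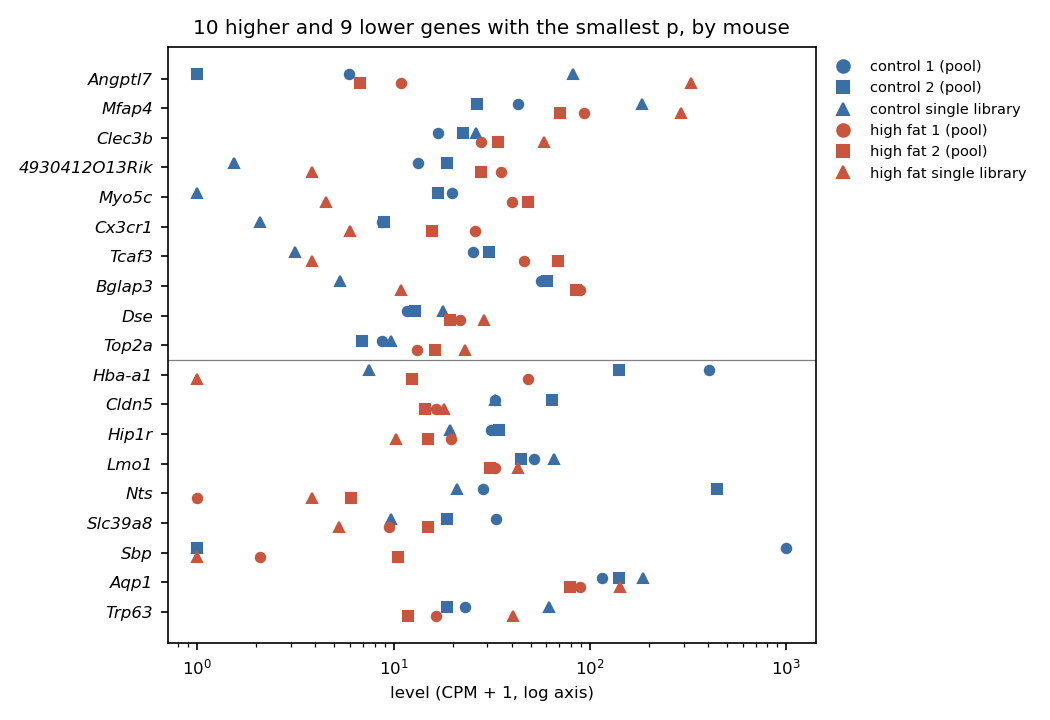
Level of the 10 genes higher and 9 of the 10 genes lower on high fat with the smallest unadjusted p, as CPM + 1 on a log axis, with 1 symbol per mouse (circles and squares for the pool, triangles for the single libraries, blue for control and red for high fat). Cldn5 shows all 3 red symbols left of the blue ones, whereas Sbp shows 1 control mouse far from the rest.

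Across all genes, 753 (7.25%) were higher in every high fat mouse than in the control mice of the same library type, and 631 (6.08%) were lower. Neither set of genes is a call, since a gene of small difference enters it as readily as one of large difference. Of the 390 tested members of the 19 functional lists, each counted once, 27 (6.92%) were higher by this measure and 13 (3.33%) were lower. At an unadjusted p under 0.05 there were 12 (3.08%, against 2.27% of all genes), and none was called. Their median log2 fold change was 0.0040, beside 0.0039 for all genes, and the interval lay within 2-fold for 315 of them (80.8%, against 77.3% of all genes).

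Genes of fatty acid use showed no call. The 28 tested PPAR targets and genes of fatty acid oxidation had a median log2 fold change of -0.08, with 9 above 0, and the interval of 23 lay within 2-fold. Cpt1a, which admits fatty acids to mitochondria, had 40.8, 33.5 and 42.2 CPM in control and 35.6, 40.1 and 45.5 CPM in high fat mice, with overlapping groups and a log2 fold change of 0.01 ± 0.16. Pdk4, a PPAR target that restrains glucose oxidation, had 51.3, 29.6 and 25.4 CPM against 47.7, 41.4 and 49.8 CPM (0.30 ± 0.25). The 3 high fat mice lay within or close to the control range for both genes. Acaa2, a thiolase of mitochondrial beta-oxidation, had the smallest unadjusted p of the list, with 52.3, 45.4 and 78.9 CPM against 37.4, 42.0 and 56.9 CPM.

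Genes of lipid storage and synthesis were as close. The 14 lipid droplet and lipase genes had a median of 0.0071, and Plin2, the droplet coat protein that many cells induce with lipid load, had 32.9, 98.6 and 49.7 CPM in control and 52.4, 40.1 and 61.8 CPM in high fat mice (-0.02 ± 0.35). The 29 genes of fatty acid and sterol synthesis had a median of -0.04, with 12 above 0. Scd1, the stearoyl-CoA desaturase, had 35.7, 35.5 and 55.7 CPM against 47.7, 41.4 and 62.5 CPM, and Fasn, the fatty acid synthase, had a log2 fold change of -0.23 ± 0.21. Apod, a lipid-carrying lipocalin, was the 1 of 13 genes of cholesterol efflux and lipoproteins with an unadjusted p under 0.05 (0.55 ± 0.17).

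Inflammatory genes varied between mice more than between diets. The 31 tested cytokine and chemokine genes had a median log2 fold change of -0.13, between -1.11 and 1.57, and the interval lay within 2-fold for only 15. Their summed level before TMM scaling was 6041, 21359 and 7004 CPM in control and 10943, 9486 and 6826 CPM in high fat mice, so that the highest and the lowest pool mouse were both controls. Il1b, the interleukin of activated myeloid cells, had 131, 558 and 244 CPM against 350, 230 and 200 CPM. Ccl2, a monocyte chemoattractant, had 1076, 2770 and 1821 CPM against 2137, 1452 and 1588 CPM. Control 2 was the highest of the 6 mice for both genes, and without it their log2 fold changes were 0.55 and 0.33 in place of -0.20 and -0.13. Ccl11, the eosinophil chemoattractant eotaxin, was the 1 gene of the list with an unadjusted p under 0.05, at 61.3, 63.1 and 17.3 CPM against 89.4, 113 and 21.3 CPM.

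Interferon response genes had a median of 0.16 over 23 genes, with 17 above 0 and none at an unadjusted p under 0.05. The 18 lipid-associated macrophage genes had a median of 0.0010, and Trem2, the lipid-sensing receptor that marks such cells, had 37.8, 35.5 and 43.2 CPM in control and 50.6, 33.1 and 19.9 CPM in high fat mice. Among 23 immediate early genes, which respond within minutes to stimulation and to tissue dissociation, 19 were above 0 and the median was 0.12. In this list 5 genes, named here because of these values (Egr1, Zfp36, Dusp1, Nr4a1 and Klf4), were higher in every high fat mouse within its library type, with log2 fold changes between 0.12 and 0.26. By that measure 7.25% of all genes were higher, and the edgeR unadjusted p of the 5 genes lay between 0.0950 and 0.341. The 15 heat shock genes had a median of 0.04, and the 23 genes of the unfolded protein response a median of -0.05.

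Of 32 extracellular matrix genes, 3 had an unadjusted p under 0.05 and all 3 were higher. Ccn2, a matricellular growth factor, had 139, 107 and 378 CPM in control and 159, 171 and 518 CPM in high fat mice, and Lox, the enzyme that crosslinks collagen, had a log2 fold change of 0.66 ± 0.28. The list as a whole had a median of 0.04. Gpx3, a secreted glutathione peroxidase, had 26.1, 13.8 and 128 CPM against 49.5, 39.5 and 175 CPM (0.73 ± 0.20), in a list of 21 antioxidant genes with a median of 0.09. The 31 nuclear genes of oxidative phosphorylation had a median of -0.03, and the interval of every one lay within 2-fold. Medians were 0.04 for 22 genes of glycolysis and hypoxia, where Pfkfb3, a glycolytic regulator, was at -0.40 ± 0.15, and 0.0055 for 23 genes of insulin, IGF and glucocorticoid response.

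Androgen response genes had a median of 0.06 over 12 genes. Pbsn, the androgen-induced prostate lipocalin probasin (chrX:77837901-77853623, minus strand), had 1227, 1531 and 141 CPM in control and 1713, 1909 and 371 CPM in high fat mice, and its log2 fold change was 0.71 ± 0.20. In the control single library its 260 UMIs came from 4 cells of the prostate-like cluster led by Tgm4. In the high fat single library 521 of 522 UMIs came from 7 cells of that cluster. Pbsn is also 1 of the 5 prostate-like markers, which had a median of 0.51, with 4 of 5 above 0. Medians were -0.02 for 16 clock genes, -0.0096 for 13 MHC genes and 0.03 for 12 other secretory products, where Spink11, a serine protease inhibitor of the Kazal type, was the highest at 0.59 ± 0.18. None of the 40 lists, functional or cell type, held a called gene.

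**Figure D3:**
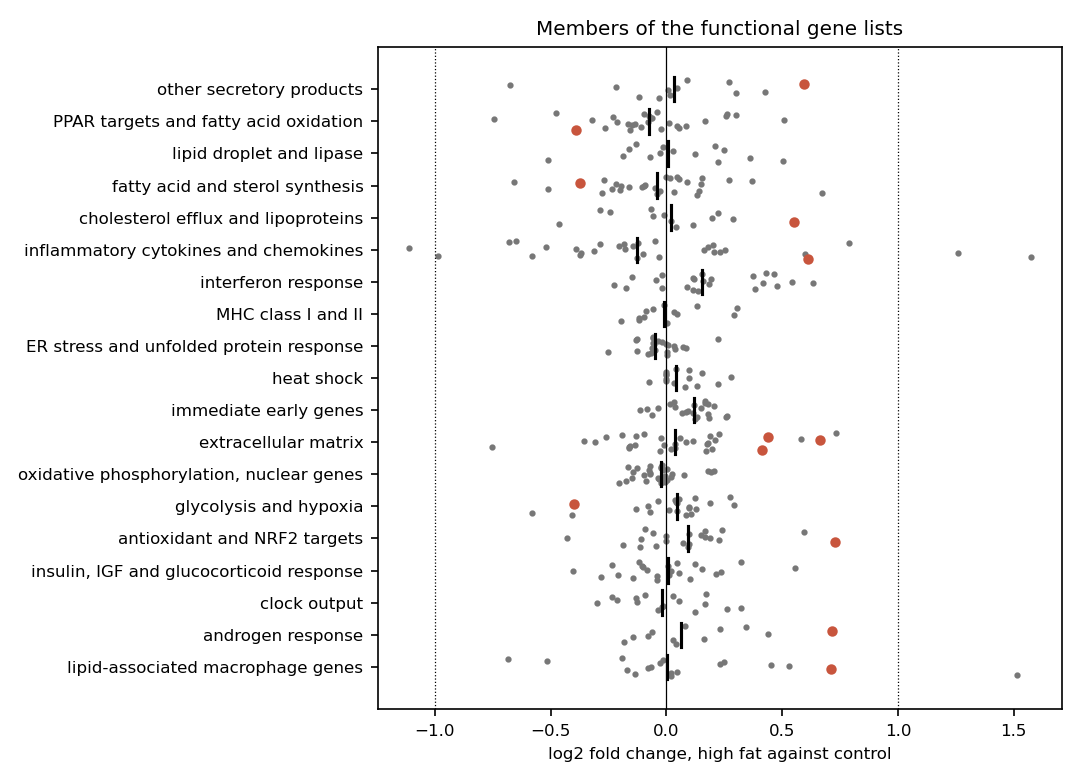
Fitted log2 fold change of high fat over control for each tested member of the 19 functional lists, 1 point per gene, with the list median as a black bar, dotted lines at 2-fold and red points for an unadjusted p under 0.05. The medians lie between -0.13 and 0.16, and the inflammatory list is the widest.

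Markers of the smooth muscle coat, and of cells that a dissection could add, were examined beside these values. The 7 smooth muscle markers were lower in the fit without exception, with a median of -0.52. Tagln, a contractile actin-binding protein on that list, had 842, 1831 and 364 CPM in control and 768, 649 and 273 CPM in high fat mice. The summed smooth muscle level before TMM scaling was 2188, 4454 and 1251 CPM against 2393, 1656 and 1071 CPM, so control 2 again held the highest value and the groups overlapped. Urothelial markers ran from 2.31 to 85.5 CPM in control and from 2.97 to 134 CPM in high fat mice. The 5 adipocyte markers were at 0 in all 3 high fat mice and at most 5.66 CPM in control, so that fat cells were close to undetected. The epididymis markers summed to 128 CPM in control 2 and to at most 7.35 CPM in the other 5 mice. The part of these cell types in the diet differences was not tested.

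The cells were then clustered and named from marker lists to ask whether the diet went with another cell composition. Fibroblast-like cells were the largest class (1801 cells), with 24.2%, 21.0% and 46.4% of cells in control and 33.6%, 28.8% and 45.8% in high fat mice. The group means were 30.5% ± 13.8 and 36.1% ± 8.80 (SD), and an exact two-sided permutation test gave p = 0.6, where 3 against 3 mice cannot go below 0.1. This test does not take up the library type. Within the pool both high fat mice lay above both controls (difference of means 8.57 percentage points), and between the single libraries the difference was -0.597. On leaving out 1 mouse the difference of 5.52 over all mice lay between 0.636 (without the high fat single library) and 13.5 (without the control single library). Basal epithelial-like cells made up 23.3% ± 8.06 against 20.2% ± 5.92 (exact p = 0.8), with a difference of -4.55 points in the pool and -0.252 between the single libraries. Cells of the prostate-like class, named by cluster from markers such as Tgm4 and Pbsn, made up 5.32% ± 0.954 against 6.80% ± 1.35 (exact p = 0.2). The differences were 1.51 and 1.41 points. In the single libraries most cells of this class (68 of 72 in control and 70 of 77 in high fat) lay in 1 cluster. These cells held 0 and 1 UMIs of Pbsn. In a finer clustering (Leiden resolution 2) the class fell from 288 to 153 cells, with 3.09% ± 2.55 against 4.94% ± 3.11 (exact p = 0.5).

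The other classes overlapped between the diets too. Endothelial-like cells were 7.47% ± 1.32 against 7.21% ± 0.913 (exact p = 0.7), and smooth muscle-like cells 5.27% ± 3.95 against 3.14% ± 1.40 (exact p = 0.5), with a difference of -3.51 points in the pool and 0.631 between the single libraries. Macrophage-like cells were 6.36% ± 5.77 against 5.74% ± 4.31 (exact p = 0.9), but the difference of high fat minus control was -0.625 percentage points with control 2 and 2.56 without it. T or NKT-like cells were 5.43% ± 4.46 against 3.98% ± 1.71 (exact p = 0.8). Exact p-values were 0.5 for pericyte-like and for dendritic or monocyte-like cells, 0.9 for Schwann-like, 0.8 for lymphatic endothelial-like and 1 for urothelium-like cells, of which 17 of 25 came from control 1. A further 322 cells stayed unnamed.

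**Figure D4:**
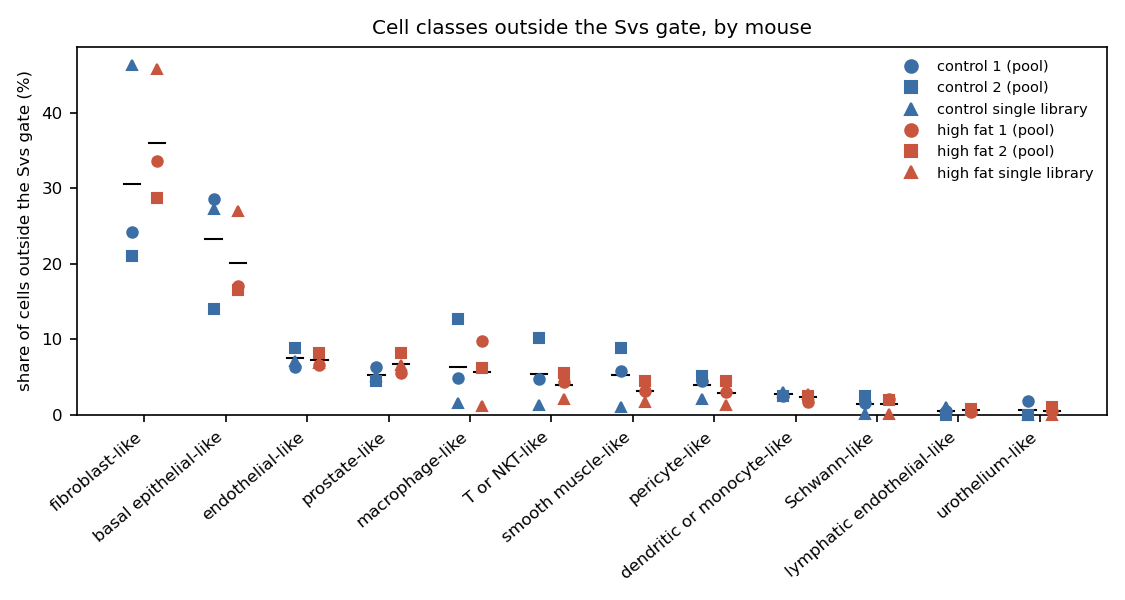
Share of the cells outside the Svs limit in each cell class (vertical axis, percent), 1 symbol per mouse with blue for control and red for high fat, and a bar at the mean of each group. The symbols of the 2 diets overlap in every class, and the single libraries (triangles) hold more fibroblast-like cells than the pool mice.

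Within classes, UMIs summed per mouse were tested where at least 10 cells of a class were present in at least 2 mice of each diet. Pool and single-library cells of the fibroblast-, basal- and prostate-like classes lay mostly in different clusters, but cells of both diets lay in the same ones. No gene was called in fibroblast-like cells (0 of 6440, 0%), macrophage-like cells (0 of 1253), smooth muscle-like cells (0 of 1088), T or NKT-like cells (0 of 680), pericyte-like cells (0 of 1025) or dendritic or monocyte-like cells (0 of 935). At an unadjusted p under 0.05 edgeR gave 228, 52, 52, 19, 37 and 28 genes in the same order. The pericyte-, dendritic or monocyte- and prostate-like fits had 5 mice, since control 2 held under 10 such cells. The interval lay within 2-fold for 62.3% of the genes in fibroblast-like cells and 80.8% in basal epithelial-like cells, against 24.8% in pericyte-like cells.

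In basal epithelial-like cells 1 of 5137 genes was called (0.0195%), and 164 had an unadjusted p under 0.05. Tgm4, a prostate transglutaminase (chr9:123034726-123067561, plus strand), had 28.8, 54.6 and 0 CPM in control and 113, 238 and 0 CPM in high fat mice, from 38, 5, 0, 73, 86 and 0 UMIs. It rose by 2.40 ± 0.38 on the log2 scale (adjusted p = 0.0221) and was at 0 in both single libraries, so the difference came from the pool. Without control 1 the adjusted p of Tgm4 was 0.965, and without control 2 it was 0.126. Other genes of prostate-like cells, chosen after their values were seen, lay in the same direction in basal epithelial-like cells without being called. Pbsn had 36.4, 0 and 0 CPM against 41.8, 124 and 0 CPM (log2 difference 1.13 ± 0.45, adjusted p = 1). A leading gene of 1 prostate-like cluster, 9530053A07Rik, had 37.2, 54.6 and 0 CPM against 63.5, 719 and 0 CPM (3.20 ± 0.80, adjusted p = 1), and both genes were highest in high fat 2, the mouse with the most Tgm4. Prostate-like cells, which Tgm4 defines, held it at 1977 to 11679 CPM before TMM scaling, and other classes at 0 to 115 CPM. The part of free RNA from prostate-like cells was not tested.

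In endothelial-like cells 1 of 1942 genes was called (0.0515%), and it was Cldn5, which was also among the genes named in the summed cells. Cldn5 had 609, 1265 and 190 CPM in control and 258, 95.4 and 74.4 CPM in high fat mice, from 83, 32, 18, 19, 6 and 5 UMIs. It fell by 2.02 ± 0.40 on the log2 scale (adjusted p = 0.0392), and the groups overlapped only in that high fat 1 lay above the control single library. The adjusted p was 0.0538 with library sizes used without scaling factors, 0.589 without control 2 and 0.931 without high fat 2. Lymphatic endothelial-like cells also express Cldn5, with 40 UMIs from 14 cells (1926 CPM before TMM scaling) in the control single library. They were too few to test.

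In the class named prostate-like 3 of 4838 genes were called (0.062%), and 135 had an unadjusted p under 0.05. This class joins 2 clusters of different kinds. Cluster 9 (176 cells) held most single-library cells of the class, and its 10 leading genes included 4 antibody genes (Igha, Iglc2, Igkc and Jchain) but 1 marker of the class (Msmb). Cluster 15 (112 cells) was led by Tgm4, Pate9 and Pbsn and held most pool cells. The calls below are therefore set beside the levels by cluster, which are CPM before TMM scaling and carry no test.

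Pbsn had 6537 CPM in control 1 and 2608 CPM in the control single library over the class, against 11717, 9849 and 4604 CPM in high fat mice, a log2 difference of 0.76 ± 0.13 (adjusted p = 0.0425, and 0.330 without high fat 1). In cluster 15 alone the level of Pbsn was 5351, 11141 and 21289 CPM in control and 8428, 7860 and 22654 CPM in high fat mice, and the groups overlapped. In cluster 9 the level of Pbsn was 6603, 0 and 0 CPM in control and 23382, 9451 and 11.5 CPM in high fat mice. There control 1, high fat 1 and high fat 2 had 18, 7 and 10 cells, and the single libraries held 0 and 1 UMIs of Pbsn. Control 2, which was not in the test, is the second of the control values by cluster, from 4 cells in cluster 15 and 3 in cluster 9.

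Spink1, a trypsin inhibitor of the Kazal type, had 3551 and 321 CPM in control and 117, 282 and 194 CPM in high fat mice over the class. The log2 difference was -3.44 ± 0.48 (adjusted p = 0.00311, and 0.173 without high fat 1). With 2 controls in the fit, no gene of this class was tested without 1 of them. Control 1 held 2713 UMIs of Spink1 against 32 in the control single library. Most of these, 2195 UMIs, came from 18 cells of cluster 9. In that cluster the level of Spink1 was 9669, 153 and 361 CPM in control and 431, 582 and 230 CPM in high fat mice, and in cluster 15 it was 793, 44.0 and 81.9 CPM against 55.1, 71.9 and 87.0 CPM. Control 1 was the highest mouse in both clusters, and the other controls overlapped with the high fat mice. Igkc, the immunoglobulin kappa constant region of antibody-secreting cells, had 0 UMIs in the control mice and 0, 15 and 799 UMIs in high fat mice, all in cluster 9. With UMIs summed over each group and a floor of 3 UMIs for the controls, its level was at least 309-fold higher. Without the high fat single library it was at least 6.53-fold higher, from the 15 UMIs of high fat 2 alone (adjusted p = 0.332). High fat 1 had 0 UMIs, as the controls did. These folds do not measure the spread between mice. The fitted standard error was 5653 on the log2 scale, so the fit sets no bound on the difference. Over the summed cells Igkc had 569 CPM in that library and at most 12.1 CPM in any other mouse.

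**Figure D5:**
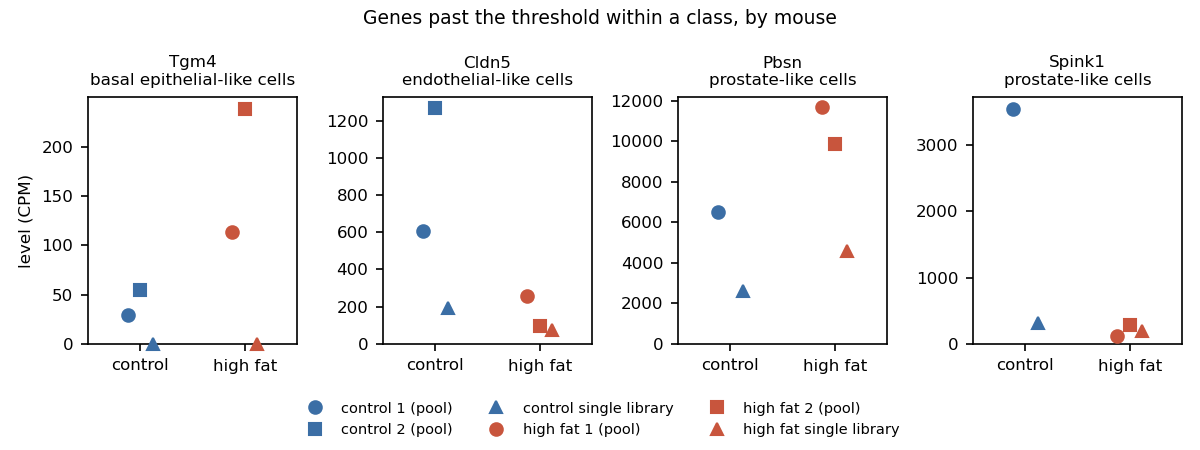
Level in CPM (linear axes from 0) of 4 genes past the adjusted threshold within a class, by diet, 1 symbol per mouse with blue for control and red for high fat. Tgm4 and Cldn5 have all 6 mice and the prostate-like panels 5, and in the Spink1 panel 1 control mouse lies far above the rest.

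Some genes of the summed comparison could be placed in a class, and the following were chosen after their values were seen. Angptl7 in fibroblast-like cells had 39.6, 0 and 200 CPM in control and 45.3, 34.9 and 802 CPM in high fat mice (log2 fold change 1.52 ± 0.33, adjusted p = 0.472). Clec3b in the same class had 88.6, 58.1 and 60.5 CPM against 109, 190 and 135 CPM, with no overlap (0.93 ± 0.25, adjusted p = 0.811). Mfap4 had log2 fold changes of 0.66 ± 0.22 in fibroblast-like and 1.17 ± 0.42 in smooth muscle-like cells. Cx3cr1 in macrophage-like cells had 255, 72.6 and 75.4 CPM against 330, 326 and 379 CPM (0.98 ± 0.44, adjusted p = 0.996). All 3 high fat mice were above all 3 controls for Cx3cr1 in this class, from 32, 4 and 2 UMIs in control and 62, 22 and 6 UMIs in high fat mice. The share of all genes of a class that show no overlap is not given here. Il1b in macrophage-like cells was nearly level, at -0.0060 ± 0.23.

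The functional lists held 3 of the genes called within classes, namely Tgm4 and Pbsn of the androgen response list and Spink1 of the other secretory products. Below that threshold, members of a list did not all lie in the same direction in each class, and the difference between classes was not tested. Immediate early genes had an unadjusted p under 0.05 for 5 of 23 members in fibroblast-like cells, all higher (median 0.10), and for 4 of 22 in basal epithelial-like cells, all higher (median 0.10), where 3.54% and 3.19% of all genes of those classes did. In smooth muscle-like cells 2 of 19 were higher (median 0.21), in macrophage-like cells 2 of 19 were lower (median -0.19), and in prostate-like cells 1 of 23 (median -0.17).

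Heat shock genes had 4 of 13 members higher at that level in smooth muscle-like cells (median 0.62, with 4.78% of all genes of the class at that level in either direction). In fibroblast-like and endothelial-like cells 1 of 15 and 1 of 13 were higher (3.54% and 3.81% of all genes). By contrast 3 of 15 were lower in prostate-like cells (median -0.25, with 2.79% of all genes at that level), 2 of 14 in basal epithelial-like cells and 1 of 11 in macrophage-like cells. Genes of sterol and fatty acid synthesis had 2 of 20 members lower and 0 higher in fibroblast-like cells (median -0.26), but 2 of 17 higher and 0 lower in prostate-like cells (median 0.28) and 1 of 22 lower in basal epithelial-like cells (median 0.02). The higher ones in prostate-like cells were Fdps and Insig1, a synthase and a regulator of the sterol pathway. Of the lipid-associated macrophage genes, 3 of 13 were lower in macrophage-like cells (median -0.25), where 4.15% of all genes had an unadjusted p under 0.05. In pericyte-like cells 2 of 7 were lower (3.61% of all genes), and in smooth muscle-like and basal epithelial-like cells 1 of 5 and 1 of 8 were higher. Other lists reached like counts. In prostate-like cells 4 of 11 extracellular matrix and 3 of 12 inflammatory genes were lower and 0 higher. In smooth muscle-like cells 3 of 11 genes of the unfolded protein response were higher and 0 lower.

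Against the low protein mice, the high fat mice differed in 5 of 10159 genes (0.0492%), and 466 genes had an unadjusted p under 0.05. These levels are CPM before TMM scaling. Psca, a surface antigen of prostate and bladder epithelium (chr15:74714839-74717069, plus strand), had 153, 180 and 0 CPM in high fat and 7.36, 11.5 and 0 CPM in low protein mice. It was higher by 4.04 ± 0.27 on the log2 scale (adjusted p = 0.000804), while the control mice spanned 208, 1.89 and 0.577 CPM. Upk1a, a uroplakin of the bladder lining, was higher by 4.74 ± 0.47 (adjusted p = 0.000804), and Itln1, the lectin intelectin, by 4.22 ± 0.63 (adjusted p = 0.0207). Psca remained past the threshold on leaving out any 1 mouse. Upk1a did so without each low protein mouse and without the high fat single library, and was not tested without high fat 1 or 2. Itln1 was lost without the high fat single library (adjusted p = 0.0588) and without low protein 1 (0.176), low protein 2 (0.264) or the low protein single library (0.0558). Like Upk1a, Itln1 was not tested without high fat 1 or 2, so it passed on no omission of a mouse. Psca and Upk1a lead the urothelium-like cluster of 25 cells, and the summed urothelial markers were 134, 90.0 and 2.97 CPM in high fat against 15.5, 7.99 and 4.08 CPM in low protein mice.

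Hba-a1 and Hbb-bt were the 2 genes lower on high fat than on low protein. Hba-a1 had 46.6, 11.0 and 0 CPM against 2257, 878 and 0 CPM (log2 difference -5.70 ± 0.56, adjusted p = 0.0266). Its adjusted p was 0.129 without high fat 1 and 0.0575 without high fat 2. That of Hbb-bt was 0.384 and 0.106, and Hbb-bt was not tested without low protein 1 or 2. Cldn5, Angptl7 and Mfap4 were not called between these diets. Cldn5 had 15.2, 12.9 and 17.8 CPM on high fat and 12.5, 11.5 and 25.9 CPM on low protein, a log2 difference of 0.0033 with a 95% interval from -0.56 to 0.57. The caloric restriction mice of the pool held 12.0 and 9.07 CPM of Cldn5, so that the 3 control mice were the high ones among these 11. Angptl7 was at -0.27 between high fat and low protein (interval -1.32 to 0.79), and Mfap4 at 0.50 (interval 0.18 to 0.83, adjusted p = 0.990). Both comparisons share the high fat mice.

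The diet difference outside the Svs limit was also set against that in the secretory cells of the same mice, where control 2 contributed 16 cells. The interaction of diet and compartment passed for 7 of 10708 genes (0.0654%), and 378 had an unadjusted p under 0.05. Of the 7 genes, 4 were globins (Hbb-bt, Hba-a1, Hba-a2 and Hbb-bs), each highest in control 1 outside the secretory cells and in high fat 1 inside them. Hba-a1 in secretory cells had 3.22, 578 and 0.232 CPM in control and 743, 0 and 9.60 CPM in high fat mice. C1qa, a complement gene of macrophages, was the 1 gene with the higher difference outside, with 119, 396 and 67.9 CPM against 314, 164 and 40.1 CPM there and 6.43, 151 and 1.39 CPM against 1.51, 0 and 0.430 CPM in secretory cells. Defb50, a beta-defensin, and Gal, the neuropeptide galanin, were the remaining genes. In secretory cells each had 1 mouse far above the others, with 935 CPM of Defb50 in high fat 2 and 93.6 CPM of Gal in high fat 1. Each of the calls but that of Hbb-bs was lost, or the gene was no longer tested, without 1 of the pool mice. Of the 20 genes with the smallest p in the summed comparison, Hba-a1 alone was among the 7.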

How the data were processed

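Seminal vesicle cells were captured in droplets on the 10x Genomics platform. The authors deposited raw UMI counts per gene and cell for each mouse, without normalization. The file headers name Cell Ranger 6.0.1 for the pool and 3.1.0 for the single libraries, and the submitters' processing notes name mm10 and Seurat. The 2 references differ, so only the 30406 genes in both were used. Diets of the pool mice were taken from the names of the deposited tables, since the label of the pool gives no diet per mouse.

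Cells with at least 500 genes, at most 10% mitochondrial UMIs and under 30% Svs2, Svs4, Svs5 and Svs6 UMIs were kept, and counts were summed per mouse without the Svs genes. Sums were tested in edgeR 4.0.16 (R 4.3.3) by glmQLFit and glmQLFTest after filterByExpr and TMM scaling, with the library type as a block and Benjamini-Hochberg adjustment over all genes tested (adjusted p of 0.05). Standard errors and 95% intervals come from that fit, and they cover the spread between these mice only. DESeq2 1.42.0 was an alternative, as were other scalings, filters, Svs limits, blocks and the omission of each mouse. The edgeR steps were tested on simulated counts. The interaction was fitted on 2 sums per mouse with the mouse as a block.

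Cells were clustered on 2000 variable genes, 30 principal components and 15 neighbours by Leiden at resolution 1 (leidenalg 0.10.2, igraph 0.11.9, scikit-learn 1.9.0, Python 3.11.15), and at resolution 2 as an alternative. Passing cells were ranked by their likeness to simulated doublets, and a share set in advance was marked. It was 0.8% per 1000 deposited cells, divided by the number of mice for the pool. This set share came to 4.72% and 4.78% in the single libraries and 0.659% in the pool. The marked cells were left out of the clustering only. A cluster was named when its marker list reached a mean log2 ratio of 2.5 with a share of 0.75 of markers raised, and no other list exceeded 0.7 of that score. These limits, and the setting aside of clusters led by Gm42418 and Lars2, were chosen after the data were seen, so class shares can differ from the study's own naming. Coordinates are from GENCODE on GRCm38, the sequence of mm10.

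Named genes were the 10 in each direction with the smallest unadjusted p, up to 4 members of each list with an unadjusted p under 0.05, and the called genes of each class. Another 10 genes of lipid use and inflammation were added after the values were seen. Some genes that this rule would name are not reported here. The members and lists were chosen with earlier results of these data known. No sequence is shown, since the members are mice.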

Additional observations from a re-analysis of the deposited data

Results flagged for a closer look

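The 7 genes below were singled out because the difference between the diets outside the Svs limit was tested against that in the secretory cells of the same mice, as an interaction in edgeR, and passed. The adjusted p was 3.54e-12 for Hbb-bt, 0.00153 for Hba-a1, 0.00473 for Hba-a2 and 0.0112 for Hbb-bs, all globin genes. It was 0.0140 for C1qa, 0.0282 for Defb50 and 0.0312 for Gal. Hbb-bt had 52.8, 1.34 and 0 CPM in control and 2.25, 0.431 and 0 CPM in high fat mice outside the limit, and 0.643, 50.3 and 0 CPM against 139, 2.01 and 1.43 CPM in secretory cells. Hbb-bs had 699, 213 and 10.6 CPM against 146, 7.76 and 0.966 CPM outside it, and 7.07, 1559 and 0.232 CPM against 2137, 6.02 and 28.1 CPM in secretory cells. Hba-a2 was above 1 CPM only in control 1 outside the limit (7.14 CPM) and in high fat 1 in secretory cells (19.6 CPM). Without control 1 the interaction of Hbb-bt was -0.71 in place of -8.82 on the log2 scale (adjusted p = 1), that of Defb50 was -0.67 (1) and that of Gal -2.26 (1), and Hba-a2 was not tested. Without high fat 1 the adjusted p was 1 for Hbb-bt and Gal, 0.0573 for Hba-a1 and 0.113 for C1qa, and Hba-a2 was not tested. It was 0.507 for C1qa without control 2 and 1 for Defb50 without high fat 2. With library sizes used without scaling factors it was 0.139 for Hbb-bs and Gal and 0.199 for Defb50. The control 2 values of secretory cells rest on 16 cells.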

How the results depend on the processing

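Over the summed cells the count of called genes was 0 in the reported test and became 90 without a filter on low counts and 3 with a mean of at least 10 UMIs (Jchain, Igha and Iglc2, antibody genes). Leaving out 1 mouse gave between 0 and 10 calls, with 10 without control 1 and 4 without control 2. The remaining alternatives (scaling, Svs limits, cell limits, doublets, pool mice only, no library block, DESeq2) gave 0. With a replicate block on the mouse numbers 2 genes were called, Nts and Hba-a1. The numbers did not pair the mice, since same-numbered pool mice had a correlation of deviations of -0.136 over 10382 genes, and a crossed replicate block, chosen after seeing the data, called 0 genes. High fat against low protein gave 5 calls, 162 without a filter and 1 to 6 on leaving out a mouse (1 without high fat 1, 3 without high fat 2). The interaction gave 7 calls, 4 without scaling factors, 24 without a filter and 10 to 58 on leaving out a mouse, with 58 without the control single and 54 without the high fat single library. The classes gave 5 calls in all, over 9 classes, and 91 without a filter. On leaving out a mouse there were 0 to 55 calls (0 without control 2, 55 without the high fat single library). Without a control mouse only 6 classes were tested, and the prostate-like class was not among them. At resolution 2 there were 4 calls over 7 classes, 3 in basal epithelial-like and 1 in endothelial-like cells. Tgm4 and Cldn5 were called there again, and the prostate-like class was not tested. The lists held 0 called genes, and 0 to 4 on leaving out a mouse, with 4 without control 1 and 1 without control 2. The cause of these shifts was not tested.

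Log2 fold changes near 0 changed sign. Spink11 was -0.039 at an Svs limit of 50%. Cpt1a was -0.0071 without a filter, -0.036 in pool mice only, -0.019 at an Svs limit of 10%, -0.015 without a mitochondrial limit and -0.024 without doublets. Plin2 was 0.00053 without scaling factors, 0.0046 with the replicate block and 0.082 with at least 200 genes. Trem2 was 0.20 in pool mice only. On leaving out 1 mouse the ranges were -0.036 to 0.14 for Cpt1a, -0.65 to 0.013 for Angptl4, -0.39 to 0.44 for Plin2, -0.72 to 0.47 for Cd36, -0.66 to 0.55 for Il1b, -0.44 to 0.33 for Ccl2 and -0.55 to 0.19 for Trem2. Of the alternative values for genes, class counts and class shares, 1185 kept direction and side of the threshold (or stayed within the spread), 25 changed direction, 28 lost the threshold, 22 came to pass it and 32 counts moved. The 158 cells of control 2 and the 3 mice per diet limit what could be detected.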
